A study of Mus musculus with 14 samples.

Results

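The miRNAs miR-183, miR-96 and miR-182 form a cluster of 3 neighbouring hairpins, which was followed here across 4 cell populations sorted from the mammary glands of adult FVB/N mice. Its members were taken by name from the normalized expression matrix as mmu-miR-183, mmu-miR-96 and mmu-miR-182, after removing the assay number and leaving out passenger strands, which gave 3 of the 584 miRNA probes measured. The populations were 4 samples of stroma, 3 of mature luminal cells, 3 of luminal progenitors and 4 of the MaSC/basal fraction, which holds mammary stem cells together with basal and myoepithelial cells. No animal was treated and no allele was altered in any group. Small RNAs were copied into cDNA with miRNA-specific stem-loop primers, amplified in advance and quantified by real-time PCR on a pair of array plates. The value of a reaction is its cycle threshold (Ct), where a lower Ct means more RNA and 40 means nothing detected. The normalized values are on a log2 scale (a constant minus Ct, then cyclic loess between samples), so a difference of 1 is a doubling, and levels of different assays are not comparable with each other.

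The members of this cluster are co-transcribed and conserved across animals. They are abundant in sensory epithelia, including the hair cells of the inner ear and the photoreceptors of the retina, and changes in the seed of miR-96 cause hearing loss in mice and humans. A miRNA finds its target mRNAs mainly through its seed, the bases near its 5′ end, and miR-96 and miR-182 are known to repress FOXO transcription factors. In human cells the repressor ZEB1, an inducer of mesenchymal traits, represses this cluster as well as the miR-200 family, which maintains epithelial identity.

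All 3 hairpins lie on the minus strand of chromosome 6 in the GRCm38.p6 build, within the long non-coding RNA Mirc35hg (chr6:30158640-30174125) and downstream of its 5′ end. In the direction of transcription the order is Mir183 (chr6:30169668-30169737), Mir96 (chr6:30169446-30169551) and Mir182 (chr6:30165918-30165992). Mir183 and Mir96 are 116 bases apart, and Mir96 and Mir182 are 3453 bases apart. The nearest protein-coding gene on the Mir182 side, Nrf1, lies 5181 bases beyond the end of Mirc35hg. The mature strands that the 3 assays are named for are shown because the members differ in their seeds (RefSeq sequences, seed of bases 2 to 8 in capitals).
mmu-miR-183-5p: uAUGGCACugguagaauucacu
mmu-miR-96-5p: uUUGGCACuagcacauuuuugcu
mmu-miR-182-5p: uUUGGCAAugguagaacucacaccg
The seeds of miR-183 and miR-96 differ by A2U, those of miR-96 and miR-182 by C8A, and those of miR-183 and miR-182 by both, with positions counted from 1 at the 5′ end of the mature strand and the first-named member's base given first. Bases 3 to 7 were the same in all 3. Over the whole mature strand the pair most alike was miR-183 and miR-182, with 18 identical bases of 22 compared from base 1 without gaps, against 13 of 22 for miR-183 and miR-96 and 12 of 23 for miR-96 and miR-182. Among 1679 mature mouse miRNAs in the RefSeq table, mmu-miR-1271-5p was the 1 further miRNA with the seed of a member (that of miR-96), and it was not analysed here.

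The passenger strand of the miR-183 hairpin was measured as mmu-miR-183*, from the other arm of the same precursor, and its sequence is given because it is the second product of the locus in these data.
mmu-miR-183-3p: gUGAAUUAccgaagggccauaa
The start of Mirc35hg is shown because the 3 members moved together between stroma and epithelium. The window chr6:30174076-30174375 (minus strand, 250 bases before and 50 after the annotated start, GRCm38.p6) was searched on both strands for CACCTG, the E-box core that ZEB proteins bind, whose reverse complement is CAGGTG, with no other motif searched. There was 1 match, in capitals, which begins 77 bases before the start.
Mirc35hg: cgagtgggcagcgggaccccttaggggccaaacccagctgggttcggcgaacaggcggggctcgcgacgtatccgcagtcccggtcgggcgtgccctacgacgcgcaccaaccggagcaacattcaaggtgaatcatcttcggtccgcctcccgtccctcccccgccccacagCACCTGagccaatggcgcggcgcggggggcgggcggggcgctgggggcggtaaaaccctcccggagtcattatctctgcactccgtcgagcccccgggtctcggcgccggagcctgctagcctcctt
The same motif was present in 20.2% of 32817 mouse promoter windows of this length. The G and C content of the Mirc35hg window was 70.3%, against a median of 52.7% over all windows.

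Stromal samples had a Ct below 40 for 448 to 454 of the 584 probes and epithelial samples for 338 to 366. The labels place the 4 stromal samples in 1 mouse pool, whereas the epithelial samples numbered 1 to 3 each come from mouse pools 1 to 3, so tests against stroma do not cover the spread between pools of stroma. No epithelial sample comes from the stromal pool, so a difference of stroma from epithelium cannot be told apart from a difference between mouse pools. The library labelled MaSC/basal 4, from mouse pool 4, went against its label at lineage markers. Its summed normalized level of the 4 basal markers was 23.5 on the log2 scale, against 26.4 to 27.5 in the other MaSC/basal samples, and that of the 2 luminal markers 21.9, against 17.9 to 18.3. It was left out of the tests, and the values with all 14 samples are given beside the results that include MaSC/basal cells. In stroma 4 of 5 mesenchymal markers were higher than in epithelium (3 with all 14 samples, and 47.9% of the 459 probes tested), with 8.18 ± 0.22 for miR-199a-3p and 8.03 ± 0.20 for miR-214 (log2 difference ± SE), although the summed level of the 5 was 27.3 to 27.6 in stroma and 22.3 to 29.4 in epithelium, highest in MaSC/basal cells. On the normalized values no marker of blood cells (5) or endothelium (2) rose in stroma, and 2 and 1 of them were lower (33.8% of all probes). Before normalization the blood cell marker miR-451 had a mean Ct of 25.6 in stroma and 28.6 in epithelium, without overlap, so more RNA in stroma. Mean Ct was also lower in stroma for miR-142-3p, miR-142-5p, miR-223 and miR-126-5p, and higher for miR-150 and miR-126-3p. Whether blood cells were present in the stromal samples was not tested.

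All 3 members were much lower in stroma than in epithelium. Every reaction for a member was detected in every sample, so no difference rests on an undetected value. The normalized log2 level of miR-183 was 11.45, 10.57, 11.08 and 11.37 in the 4 stromal samples, against 18.95, 19.12 and 18.95 in mature luminal cells, 18.27, 18.23 and 18.05 in luminal progenitors, and 18.38, 18.36 and 18.63 in MaSC/basal cells. The highest stromal sample lay far below the lowest epithelial one. In the limma fit the difference of stroma from the mean of the 3 epithelial populations was −7.43 ± 0.16 on the log2 scale (SE, adjusted p = 1.5e-12), with a 95% confidence interval of −7.79 to −7.08. This is 173-fold lower in stroma.

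The normalized log2 level of miR-96, the member mutated in inherited deafness, was 7.09, 7.63, 8.29 and 7.35 in stroma, against 15.56, 15.85 and 14.81 in mature luminal cells, 15.22, 15.23 and 14.51 in luminal progenitors, and 15.10, 15.36 and 14.54 in MaSC/basal cells. Again the stromal samples lay below all epithelial samples, and replicate 3 was the lowest of its population in each epithelial population. The difference was −7.54 ± 0.28 (limma, adjusted p = 2.6e-10), or 186-fold lower in stroma. The stromal reactions had Ct values of 29.1 to 31.1.

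For miR-182 the normalized log2 level was 16.09, 15.28, 16.63 and 15.62 in stroma, against 22.58, 22.50 and 22.53 in mature luminal cells, 21.74, 21.47 and 21.86 in luminal progenitors, and 21.87, 21.66 and 22.13 in MaSC/basal cells. The groups did not overlap, and the difference was −6.13 ± 0.22 (limma, adjusted p = 2.0e-10), or 70.3-fold lower in stroma. With all 14 samples the differences were −7.42, −7.56 and −6.17 for miR-183, miR-96 and miR-182, each still called. The library labelled MaSC/basal 4 had levels of 18.33, 15.22 and 22.30, among the epithelial samples and above all stromal ones.

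**Figure D1:**
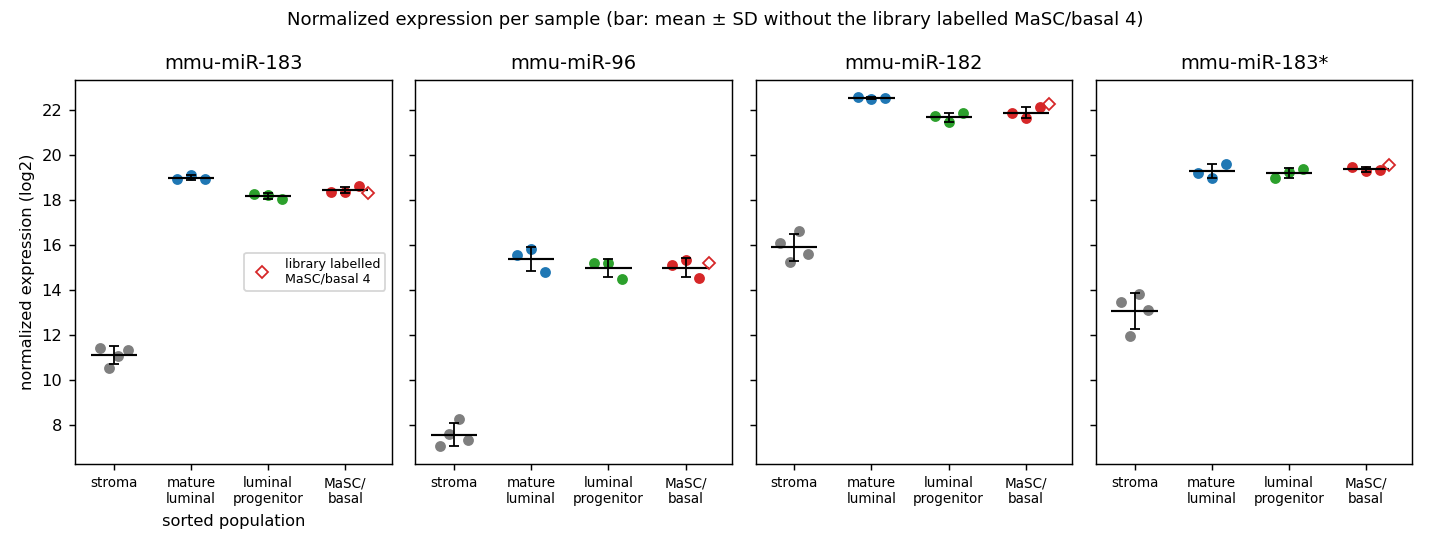
Normalized expression (log2, vertical axis) of miR-183, miR-96, miR-182 and the passenger strand miR-183* in each sample of stroma, mature luminal cells, luminal progenitors and MaSC/basal cells. Points are samples, horizontal lines and error bars are means ± SD without the library labelled MaSC/basal 4 (open diamond), and in each panel the 4 stromal samples lie below all epithelial samples.

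The background of this comparison was broad. The 3 members were called lower in stroma (adjusted p below 0.05), as were 33.8% of the 459 probes tested. On plate A, which holds the 3 assays, 117 of 300 probes were lower and 113 higher. They had all stromal samples below all epithelial samples, as had 23.1% of the probes. Among the probes called lower, the members stood nearer the extreme than most. Counted from the most negative difference, miR-96, miR-183 and miR-182 ranked 7, 8 and 19 of the 459 probes. They ranked 6, 7 and 14 of the 300 tested on plate A. By size in either direction they ranked 94, 97 and 126 of the 459 and 26, 28 and 45 of the 300. The median difference was 0.62 over all probes tested and −0.13 over those of plate A. In bulk samples, fewer cells of a type and less RNA per cell cannot be told apart, so these values are levels of the sorted population. The 5 members of the miR-200 family, epithelial markers, were also lower in stroma but detected there, with a summed log2 level of 20.6 to 21.6 in stroma and 26.8 to 28.4 in epithelium. Whether epithelial cells within the stromal samples contributed to the stromal levels was not tested.

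**Figure D2:**
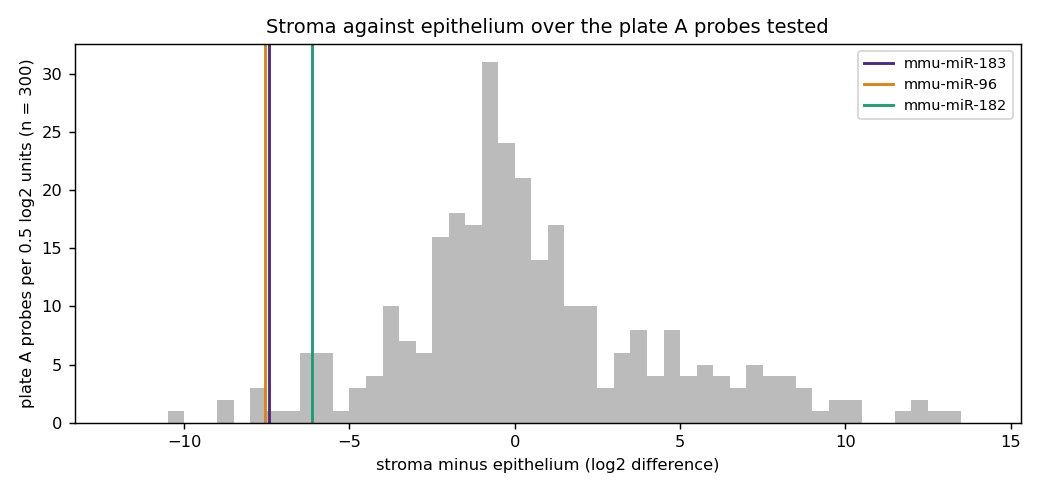
Histogram of the log2 difference of stroma from epithelium (horizontal axis) over the 300 plate A probes tested, with the number of probes per bin on the vertical axis. Vertical lines mark miR-96 (−7.54), miR-183 (−7.43) and miR-182 (−6.13), which lie in the lower tail of a distribution with its median at −0.13.

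The difference held against each epithelial population in turn. Against mature luminal cells it was −7.89 ± 0.20 for miR-183, −7.81 ± 0.35 for miR-96 and −6.64 ± 0.28 for miR-182 (log2 difference ± SE, 31.8% of all probes called lower). Against luminal progenitors it was −7.07, −7.40 and −5.79 (30.7% called lower), and against MaSC/basal cells −7.34, −7.41 and −5.98 (30.7% called lower). The highest adjusted p among these 9 differences was 3.9e-09 (limma). The differences from MaSC/basal cells with all 14 samples were −7.31, −7.47 and −6.08. They share the 4 stromal samples and are not independent of each other.

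The size of the stromal difference depended on how the samples were scaled, although each member was called lower under all 7 scalings tried. With U6 alone as the reference, the small nuclear RNA used as endogenous control, the log2 difference was −5.01 for miR-183, −3.79 for miR-96 and −4.92 for miR-182, or 32.1-, 13.8- and 30.3-fold lower in stroma. With median centring the differences were −6.83, −5.61 and −6.74. With cyclic loess without the extra weight on U6, that of miR-96 was −10.75, or 1726-fold lower. The range over scalings was thus widest for miR-96. Over all probes tested the median difference moved to 2.46 with U6 alone, and 300 probes were then higher and 62 lower in stroma, against 220 and 155 in the main fit. Of the control assays on plate A, U6 had a mean Ct of 12.7 in stroma and 12.6 in epithelium, and U87 had 21.8 and 22.3. The other small RNAs moved more, with 17.1 and 18.8 for snoRNA135, 13.9 and 16.3 for snoRNA202 and 21.4 and 27.9 for Y1.

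**Figure D3:**
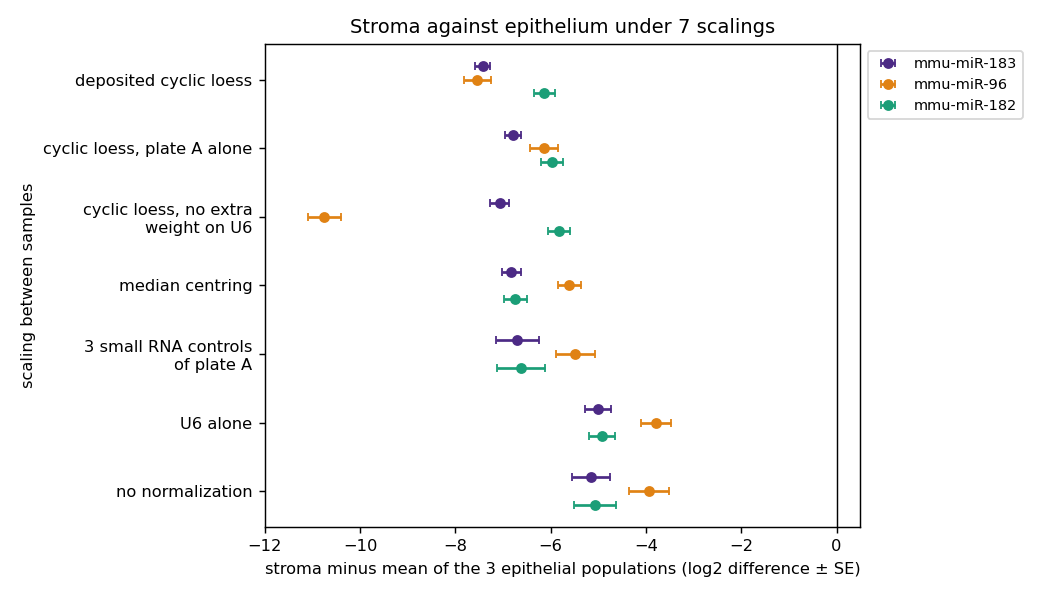
Log2 difference of stroma from the mean of the 3 epithelial populations (horizontal axis, error bars ± SE) for each member under 7 ways of scaling the samples (vertical axis). All 21 points lie below 0, and miR-96 ranges from −10.75 to −3.79 while miR-183 ranges from −7.43 to −5.01 and miR-182 from −6.74 to −4.92.

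Whether the members differed from each other in the size of the stromal change was tested on differences between members within each sample. On the normalized values miR-183 minus miR-182 was −4.79 ± 0.54 in stroma (SD, n = 4) and −3.49 ± 0.17 in epithelium (SD, n = 9), a difference of −1.30 (exact two-sided permutation test, p = 0.0028, adjusted p = 0.017 over 6 tests). The p is the smallest that 715 arrangements of the samples allow. Likewise miR-96 minus miR-182 was −8.31 ± 0.55 in stroma and −6.91 ± 0.55 in epithelium, a difference of −1.41 (exact permutation p = 0.0056, adjusted p = 0.017), although the samples of stroma and epithelium overlapped. For miR-183 minus miR-96 the values were 3.53 ± 0.78 and 3.42 ± 0.43, a difference of 0.11 (exact permutation p = 0.73, adjusted p = 0.98).

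This order among the members was not found without the normalization. On the values before cyclic loess, miR-183 minus miR-182 differed by −0.08 between stroma and epithelium (exact permutation adjusted p = 0.67), whereas miR-96 minus miR-182 differed by 1.13 and miR-183 minus miR-96 by −1.22 (adjusted p = 0.017 each). With U6 alone these values are the same, since 1 factor per sample cancels within a sample. Thus miR-182 showed the smallest stromal difference of the 3 after cyclic loess and miR-96 the smallest before it. With all 14 samples the first 2 differences were −1.25 and −1.39 (adjusted p = 0.012 each). Without stroma 1, 3 or 4 both had an adjusted p of 0.055. With cyclic loess over plate A alone, miR-96 minus miR-182 differed by −0.17 and was no longer called (adjusted p = 0.69), whereas miR-183 minus miR-182 differed by −0.81 (adjusted p = 0.034).

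**Figure D4:**
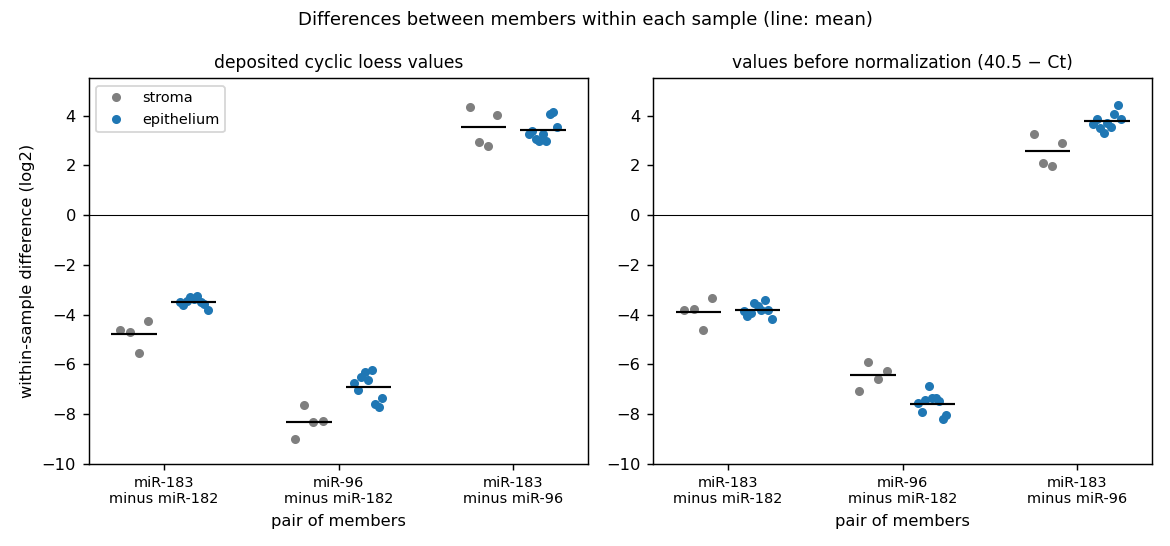
Within-sample log2 differences (vertical axis) for the 3 pairs of members in stroma (grey, n = 4) and epithelium (blue, n = 9), on the deposited normalized values (left) and before normalization (right), with lines at the means. After cyclic loess stroma is lower on average for miR-183 minus miR-182 (−1.30), without overlap, and for miR-96 minus miR-182 (−1.41), where the samples overlap, and before it miR-96 minus miR-182 is higher in stroma by 1.13.

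Within the epithelium the members differed by less than 1 on the log2 scale between population means in the deposited normalization. Mean levels had the order mature luminal, MaSC/basal and luminal progenitor for all 3 members. Both the sizes and the order depended on the scaling. With 3 plate A controls as the reference, mature luminal minus luminal progenitor was 2.36, 2.00 and 2.23 for miR-183, miR-96 and miR-182, and with U6 alone mature luminal cells were below MaSC/basal cells for miR-96 (−0.31). In mature luminal cells miR-183 averaged 19.01 ± 0.10, against 18.18 ± 0.12 in luminal progenitors and 18.46 ± 0.15 in MaSC/basal cells (SD, n = 3 each). The difference of mature luminal cells from luminal progenitors was 0.82 ± 0.22 on the log2 scale (SE, limma, adjusted p = 0.020), or 1.77-fold higher. The samples of mature luminal cells all lay above those of luminal progenitors, as for 15.5% of all probes, and 10.9% of probes were called higher in mature luminal cells. An F-test among the 3 epithelial populations also called miR-183 (adjusted p = 0.025), in a fit that called 44.4% of probes.

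This call for miR-183 was close to the threshold. It was lost in the fits without mature luminal 1 or 2 or luminal progenitor 2 or 3 (adjusted p of 0.053, 0.068, 0.051 and 0.072), while the difference itself stayed between 0.75 and 0.87 over all 13 fits that left out 1 sample. With all 14 samples the adjusted p was 0.038. Over the 7 scalings the difference ranged from 0.74 to 2.36, or 1.68- to 5.14-fold, and it was not called without normalization (1.78, adjusted p = 0.064) or with cyclic loess without the extra weight on U6 (0.74, adjusted p = 0.070).

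For miR-182 mature luminal cells averaged 22.54 ± 0.04, against 21.69 ± 0.20 in luminal progenitors and 21.89 ± 0.24 in MaSC/basal cells (SD, n = 3 each). Its difference between mature luminal cells and luminal progenitors was 0.85 ± 0.30 (limma, adjusted p = 0.068), as large as that of miR-183 but with a wider 95% interval of 0.19 to 1.51. The fit uses 1 spread over all 4 populations, and the SD of miR-182 in stroma was 0.58. The lowest mature luminal sample (22.50) lay above the highest luminal progenitor sample (21.86), a separation seen for 15.5% of all probes. With epithelial samples alone this difference was called, as it was in 2 of the 13 fits that left out 1 sample. For miR-96 the means were 15.40 ± 0.54, 14.99 ± 0.41 and 15.00 ± 0.42 in the same order, and the difference was 0.42 ± 0.38 (adjusted p = 0.46, interval −0.42 to 1.26). Its samples overlapped between the populations.

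The direction was also compared within mouse pools. Within each of pools 1, 2 and 3, mature luminal cells exceeded luminal progenitors for all 3 members, by 0.67, 0.89 and 0.90 for miR-183, by 0.34, 0.62 and 0.30 for miR-96 and by 0.84, 1.03 and 0.68 for miR-182 (normalized log2). The sign was the same in all 3 pools before normalization too, where miR-183 differed by 1.18, 1.77 and 2.39. Of all probes, 24.4% were higher in mature luminal cells in all 3 pools.

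**Figure D5:**
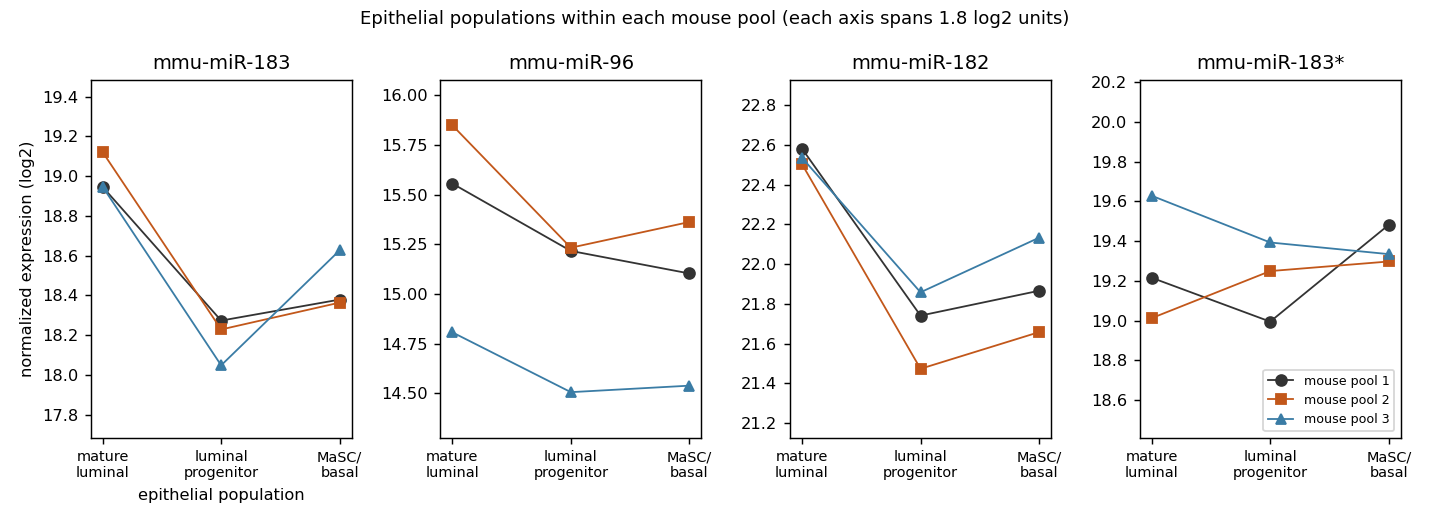
Normalized expression (log2, vertical axis) of the 3 members and of miR-183* in mature luminal cells, luminal progenitors and MaSC/basal cells, with a line for each of 3 mouse pools. In every pool the 3 members are higher in mature luminal cells than in luminal progenitors, pool 3 is the lowest for miR-96 throughout, and miR-183* has no common direction.

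Neither neighbouring step in the order of levels passed the test for any member in the main fit of the deposited values. Mature luminal cells exceeded MaSC/basal cells by 0.55 ± 0.22 for miR-183, 0.40 ± 0.38 for miR-96 and 0.65 ± 0.30 for miR-182 (log2 difference ± SE, adjusted p of 0.073, 0.42 and 0.11 by limma, 35.9% of all probes called in either direction). Luminal progenitors differed from MaSC/basal cells by −0.27, −0.02 and −0.19 (adjusted p of 0.40, 1.00 and 0.76, 36.6% called). The mean of both luminal populations differed from MaSC/basal cells by 0.14, 0.19 and 0.23 (adjusted p of 0.61, 0.69 and 0.54), with 95% intervals of −0.28 to 0.55, −0.53 to 0.92 and −0.34 to 0.80. In that comparison none of the 3 members was called, against 40.3% of all probes. With all 14 samples it was 0.17, 0.14 and 0.13 (adjusted p of 0.51, 0.77 and 0.76), mature luminal minus MaSC/basal 0.58, 0.35 and 0.55 and luminal progenitor minus MaSC/basal −0.24, −0.07 and −0.30, none of them called. With U6 alone all 3 luminal differences had the opposite sign (−0.69, −0.83 and −0.41) and none was called. In a fit of the deposited values on epithelial samples alone, mature luminal minus MaSC/basal was called for miR-183 and miR-182. For each of these it was also called in 1 of the 13 fits that left out 1 sample.

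Other scalings also made calls among these steps. With U6 alone luminal progenitors were lower than MaSC/basal cells for all 3 members, with differences of −1.39, −1.35 and −1.04 for miR-183, miR-96 and miR-182 (adjusted p of 0.0083, 0.024 and 0.041), and with 3 plate A controls they were lower for miR-183 and miR-96 (−1.63 and −1.59). With median centring mature luminal cells were higher than MaSC/basal cells for miR-183 and miR-182 (1.00 and 1.23, adjusted p = 0.011 each), and both luminal populations together for miR-182 (0.77, adjusted p = 0.048).

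No pair of members passed the test of unequal change between luminal and MaSC/basal cells. The differences of the within-sample values were −0.09 for miR-183 minus miR-182, −0.04 for miR-96 minus miR-182 and −0.06 for miR-183 minus miR-96 (6 against 3 samples, exact two-sided permutation tests, adjusted p = 0.98 each). With mouse pool as a block the permutations gave an adjusted p of 0.81 for each.

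The passenger strand miR-183*, measured on plate B, was lower in stroma like its partner. Its normalized log2 level was 13.48, 11.97, 13.82 and 13.12 in stroma and 18.99 to 19.63 in the 9 epithelial samples. The difference was −6.19 ± 0.29 (limma, adjusted p = 2.4e-09), or 73.1-fold, and −6.21 with all 14 samples. Between mature luminal cells and luminal progenitors it differed by 0.07 ± 0.39 (adjusted p = 0.93), with differences of 0.22, −0.24 and 0.24 in pools 1, 2 and 3. A test of miR-183 against its passenger strand across these populations was not made. On plate B the controls U87, snoRNA135 and snoRNA429 were at Ct 40 in all epithelial samples but were detected in stroma, and their part in the level of miR-183* was not tested.

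Among 301 other probes detected in all 13 samples, the profiles most like the cluster mean were those of the miR-200 family. Likeness was the root mean square difference of centred log2 profiles, and it was 0.41 for miR-200a*, 0.42 for miR-429, 0.55 for miR-200b, 0.55 for miR-141 and 0.58 for miR-183*, against a median of 3.28 over all candidates. All of these were low in stroma and high in epithelium. In stroma the 5 miR-200 family members had differences of −7.60 for miR-429, −6.99 for miR-141, −6.25 for miR-200b, −6.23 for miR-200c and −5.72 for miR-200a, so that the median was −7.43 over the 3 cluster members, −6.25 over the miR-200 family and 0.62 over all probes. Within the epithelium, miR-200c and miR-141 were higher in luminal than in MaSC/basal cells, by 1.27 (adjusted p = 9.1e-04) and 1.32 (adjusted p = 0.0087), and with all 14 samples by 1.19 (adjusted p = 0.0051) and 1.06 (adjusted p = 0.045). The other 3 of the family did not pass that test, and neither did the 3 cluster members. Of all probes, 17.2% were called higher in luminal cells in the main fit, and 53 of 460 with all 14 samples.

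Over the 9 epithelial samples alone the nearest profiles were different ones, miR-101a at 0.16, let-7g at 0.20, miR-345-5p at 0.23, let-7a at 0.25 and let-7d at 0.25, with a median of 0.87 over the candidates. There miR-183 and miR-182 were each the nearest probe to the other, at 0.16. By contrast miR-96 ranked 31 from miR-183 and 49 from miR-182, and miR-183* ranked 41 from the cluster mean. The pooled replicate SD was 0.25 for miR-183, 0.37 for miR-182 and 0.48 for miR-96, beside 0.37 for the median probe detected in every sample.

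A list of 5 miRNAs known from neural tissue and retina, where the cluster is abundant, was also compared. Against the mean of the 3 epithelial populations, 4 were lower in stroma and none higher on the deposited normalized values. The median log2 difference was −2.09, beside 0.62 over all probes, of which 33.8% were lower. Before normalization these 4 did not share that direction. For miR-9 the mean Ct was 26.2 in stroma and 27.1 in epithelium, and for its passenger strand miR-9* 26.8 and 27.5. It was 31.5 and 31.5 for miR-124, and 21.0 and 19.8 for miR-204. When all 14 samples were used, 2 of the 5 were lower, miR-9 and miR-9*, as were 144 of 460 probes. Against each single epithelial population in the main fit, 1 of the 5 was higher in stroma, not the same miRNA throughout. The number lower was then 4 (MaSC/basal, 30.7% of all probes), 3 (luminal progenitor, 30.7%) and 3 (mature luminal, 31.8%). In that order, 212, 226 and 213 of 459 probes were higher. Mean normalized log2 levels of miR-211 were 8.1 in stroma, 0.79 (MaSC/basal), 2.9 (luminal progenitor) and 14.3 (mature luminal). Mean normalized log2 levels of miR-204 were 18.9 in stroma, 25.7 (MaSC/basal), 19.1 (luminal progenitor) and 17.9 (mature luminal). Between luminal and MaSC/basal cells no cluster member was called, while 3 of these 5 were higher and 1 lower in luminal cells (17.2% and 23.1% of all probes). In the fit of all 14 samples these counts were 1 and 1 (53 and 57 of 460 probes). Among the 3 higher in the main fit, miR-211 had a Ct of 40 in all 3 MaSC/basal samples. It was detected in 2 of 3 luminal progenitor samples and in all 3 mature luminal samples. The remaining lists served to check the labels.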

How the data were processed

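The labels name human pre-amplification primers for these mouse samples and the study's methods mouse ones, and the effect of either was not tested. Ct values were deposited as exported by the authors, a score with 40 for undetected reactions, for 597 assay positions in 14 samples. The normalized log2 values deposited by the authors are 40.5 minus Ct after cyclic loess (span 0.7, 5 iterations, weight 100 on U6), which was run again and matched to within 5.3e-14. Another deposited table holds the authors' own comparison of MaSC/basal with luminal cells (fold changes and test statistics) and was not used. Probes reaching 2 in at least 3 samples were kept (459 of 584). They were fitted with limma 3.58.1 (R 4.3.3, lmFit and eBayes, 4 population means, 13 samples, 9 residual and 1.44 prior degrees of freedom) and adjusted by Benjamini and Hochberg at 0.05. Member pairs were compared by exact permutation tests (scipy 1.17.1), adjusted over 6 tests. The fit was tested on simulated data with independent samples, which hold no mouse pools and so cannot show how pools affect the tests. No pair of samples held the same values (highest correlation 0.99).

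Named miRNAs were the members, their passenger strands, the miR-200 family, a neural and retinal list, cell type markers, controls and the 5 profiles nearest the cluster mean. The members and lists were chosen with earlier results of these data known. The labels give epithelial samples of 1 number the same mouse pool, and their deviations from population means correlated with a median of 0.22 in 9 same-pool pairs and −0.12 in 18 others. Alternatives were other scalings, filters, a block for mouse pool, all samples, and each sample left out.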

Additional observations from a re-analysis of the deposited data

Results flagged for a closer look

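With the library labelled MaSC/basal 4 included, replicate 3 stood apart from the other 3 MaSC/basal samples for miR-183, with the gap to its neighbour taking most of the range of the group, at a normalized log2 level of 18.63 and at a Ct of 21.4. Its Ct for miR-96 also stood apart, at 25.5. After normalization its miR-96 level of 14.54 was the lowest of the 4 and was not far enough from the rest to stand out. Chance sets apart about 1 in 20 groups by this criterion, and 16 groups were examined. Without MaSC/basal 3, no call for a member was gained or lost, and luminal minus MaSC/basal for miR-96 was −0.038, against 0.19 with it.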

How the results depend on the processing

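All 12 tests of a member against stroma kept direction and call under every alternative, over scalings within the ranges given above. The other results moved as follows, the cause not tested. With U6 alone, luminal minus MaSC/basal was −0.69, −0.83 and −0.41 (miR-183, miR-96, miR-182), mature luminal minus MaSC/basal −0.31 for miR-96, and called were luminal progenitor minus MaSC/basal (−1.39, −1.35, −1.04), mature luminal minus luminal progenitor for miR-182 (1.26) and the F-test for miR-96 and miR-182 (adjusted p of 0.049 and 0.029). With 3 plate A controls, luminal minus MaSC/basal was −0.45, −0.59 and −0.16, and called were luminal progenitor minus MaSC/basal for miR-183 and miR-96 (−1.63, −1.59), mature luminal minus luminal progenitor for miR-96 and miR-182 (2.00, 2.23) and their F-tests (0.021, 0.044). With median centring, luminal progenitor minus MaSC/basal was 0.0020 for miR-96 and 0.32 for miR-182, and called were luminal minus MaSC/basal for miR-182 (0.77), mature luminal minus MaSC/basal for miR-183 and miR-182 (1.00, 1.23) and the F-test for miR-182 (0.022). The miR-183 calls were lost without normalization (mature luminal minus luminal progenitor 1.78, F-test adjusted p = 0.061) and with loess without extra weight on U6 (0.74, 0.060), where luminal progenitor minus MaSC/basal was 0.55 for miR-96. Fitted on epithelial samples alone, mature luminal minus MaSC/basal was called for miR-183 and miR-182 (0.55, 0.65), as were mature luminal minus luminal progenitor (0.85) and the F-test (0.021) for miR-182. With loess over plate A alone, an alternative chosen after the plate B controls were seen, luminal minus MaSC/basal was −0.14 for miR-96.

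Between members, stroma against epithelium, the differences of miR-183 minus miR-182, miR-96 minus miR-182 and miR-183 minus miR-96 were −0.084, 1.13 and −1.22 without normalization and with U6 alone. With loess without extra weight the second was −4.93 and the third 3.68 (called), and with loess over plate A the first was −0.81, the second −0.17 (not called) and the third −0.64. For luminal against MaSC/basal they were 0.043, 0.012 and 0.031 with all 14 samples, the third was 0.14 without normalization and with U6 alone and 0.15 with loess over plate A, and the second 0.39 with loess without extra weight.

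With each sample left out in turn, luminal minus MaSC/basal for miR-96 ranged from −0.038 to 0.37 and luminal progenitor minus MaSC/basal from −0.25 to 0.22. Mature luminal minus MaSC/basal ranged from 0.49 to 0.63 (miR-183, called without stroma 2) and from 0.54 to 0.78 (miR-182, called without stroma 3, adjusted p = 0.043), and mature luminal minus luminal progenitor from 0.75 to 0.87 and from 0.74 to 0.93 (miR-182, called without stroma 2 or stroma 3, adjusted p of 0.037 and 0.021). F-test adjusted p-values ranged from 0.0041 to 0.083 for miR-183 and from 0.023 to 0.19 for miR-182 (called without stroma 2 or stroma 3, 0.042 and 0.023). Member differences against stroma ranged from −1.47 to −1.04, −1.63 to −1.18 and −0.17 to 0.35, with an adjusted p of 0.055 for the first 2 without stroma 1, 3 or 4, where 3 stromal samples allow no exact p below 0.0091. For luminal against MaSC/basal they ranged from −0.15 to −0.02, −0.39 to 0.26 and −0.28 to 0.26.

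The mouse pool block changed no call (miR-183, mature luminal minus luminal progenitor, 0.82 with adjusted p = 0.029 fixed and 0.015 random; member pairs −0.09, −0.04 and −0.06). With all 14 samples 110 probes were called between luminal and MaSC/basal cells, against 185, and 45 between mature luminal cells and luminal progenitors, against 101. Between mature luminal cells and luminal progenitors there were 51 calls with U6 alone and 44 without normalization. Between stroma and epithelium 375 probes were called, against 229 with plate A probes alone, 227 with loess over plate A and 206 with 3 plate A controls, settings that test fewer probes. Precision is limited by the few samples per population.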
